A study of Mus musculus with 16 samples.

Results

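Of the 23337 gene symbols counted in mouse blood neutrophils, 10 were taken by their symbol as the core genes of inflammasome and death receptor signalling: Nlrp3, Pycard, Casp1, Casp4, Gsdmd, Casp8, Cflar, Ripk1, Ripk3 and Mlkl. All 10 had at least 1 read in the table, and 9 of them passed the filter on low counts that left 9213 genes for testing. Mlkl was the member that did not pass. The libraries came from blood neutrophils of 8-week-old C57/Bl6 mice, isolated by magnetic negative selection. Control mice carried the floxed lymphotoxin β receptor gene (Ltbr fl/fl) without Cre. LTβRΔN mice carried the same floxed gene together with Mrp8-Cre, a recombinase driven by the promoter of S100a8, which encodes a calcium-binding protein abundant in neutrophils, so that the receptor is deleted mainly in neutrophils. Control mice gave 3 libraries labelled unstimulated and 4 labelled stimulated, LTβRΔN mice 4 and 5. By the treatment protocol the cells were cultured for 2 h in GM-CSF (100 ng/ml), TNF (100 ng/ml) and IL-6 (50 ng/ml), either with the ligand LIGHT (500 ng/ml) or without it, whereas the design text names the cytokines themselves as the treatment. The labels do not say for any library which agents it received, so the groups are called stimulated and unstimulated as labelled.

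An inflammasome is a protein platform in which a sensor such as NLRP3 recruits the adaptor ASC, encoded by Pycard, and through it caspase-1. Caspase-1 matures interleukin-1β and cleaves gasdermin D, whose freed part forms pores in the plasma membrane, a lytic death called pyroptosis. Caspase-11, encoded by Casp4 in the mouse, binds bacterial lipopolysaccharide in the cytosol and cleaves gasdermin D without such a platform. Below TNF receptor 1 and its relatives, the kinase RIPK1 can assemble complexes with caspase-8, which starts apoptosis, and with c-FLIP, the product of Cflar, which restrains caspase-8. Where caspase-8 is inactive, RIPK1 can hand on to RIPK3, which phosphorylates MLKL and thereby starts necroptosis. In neutrophils, which are short-lived, these routes bear on survival and on interleukin-1β release, and transcription of Nlrp3, Casp4 and Cflar is known to respond to NF-κB.

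The libraries held 1094335 to 11932653 counted reads, with the lowest median, 2408608, in stimulated LTβRΔN neutrophils. Values are given as CPM, counts-per-million, that is reads relative to the library total after scaling by edgeR's TMM factors. Ltbr fell from 116 ± 33.0 CPM (SD, n = 3) in unstimulated control neutrophils to 8.22 ± 3.14 CPM (SD, n = 4) in LTβRΔN neutrophils, and from 109 ± 27.7 CPM (SD, n = 4) to 8.65 ± 6.75 CPM (SD, n = 5) with stimulation, as the genotype labels say. Nfkbia, an NF-κB target, rose from 548 ± 203 to 17526 ± 899 CPM in control and from 612 ± 93.7 to 17628 ± 1164 CPM in LTβRΔN neutrophils. Summed neutrophil markers lay between 44416 and 74928 CPM in the 16 libraries. Of 4 markers each, 3 B cell, 1 T cell and 3 NK cell genes were at 0 in each of them, among them Ms4a1, Cd79b, Cd3e, Ncr1, Klrb1c and Eomes, while Cd3d had reads in all 16. The summed markers reached at most 1.60 CPM for B cells and 0.140 CPM for NK cells, and lay between 4.80 and 16.4 CPM for T cells, between 38.4 and 114 CPM for eosinophils and between 12.01 and 66.6 CPM for erythroid cells. Summed monocyte markers lay between 313 and 516 CPM, of which Csf1r made up 224 to 439 CPM and Ctss 60.7 to 103 CPM. The other monocyte markers were near 0. Ccr2 and Cx3cr1 had 0 reads in 15 libraries each and F13a1 in 14, and Ms4a6c reached at most 1.60 CPM. Of the eosinophil markers, Siglecf made up 37.6 to 109 CPM, and Prg2 was at 0 in all 16 libraries. In stimulated control library 82 the platelet markers summed to 170 CPM and the immature neutrophil markers to 753 CPM, the highest of the series, with Mpo and Elane at 0 there as elsewhere. The library names carry an index tag, which was S520 in 6 libraries (all unstimulated LTβRΔN libraries and control libraries 71 and 72), and S521 in the other 10, so that in LTβRΔN neutrophils index and stimulation cannot be told apart. Nothing in the labels says that libraries of a group came from separate mice, so the p-values measure the spread between libraries.

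The members lie on 8 chromosomes of GRCm38, and 2 pairs of them are neighbours. Casp1 (chromosome 9, 5298517 to 5307265) ends 1562 bases before Casp4 (5308828 to 5336783) begins on the same strand. Cflar (chromosome 1, 58711508 to 58758884) ends 36489 bases before Casp8 (58795374 to 58847503), also on the same strand. Nlrp3 lies on chromosome 11 (59541568 to 59566956), Gsdmd on chromosome 15 (75862327 to 75867408) and Pycard on chromosome 7 (127989708 to 127993867). Ripk1 lies on chromosome 13 (34002363 to 34037147), Ripk3 on chromosome 14 (55784995 to 55788865) and Mlkl on chromosome 8 (111311797 to 111338177). The annotation places Serpinb6a on the other strand of part of Ripk1, and unconfirmed transcripts on the other strand of Pycard and on the strand of Casp8. It also places processed pseudogenes on both strands within Ripk1 and on the other strand of Mlkl. Whether reads were counted by strand is not given in the sources used here, so reads of Ripk1 and Serpinb6a in the shared stretch cannot be told apart.

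Nlrp3 and Casp4 were the members with an NF-κB consensus site in the 250 bases before an annotated transcript start, and their sequences are shown because both genes rose with stimulation (values below). The sites were searched on both strands of the RefSeq promoter windows (GRCm38.p6), where 7.25% of 32851 windows held at least 1. The sequences are printed 5′ to 3′ on the strand of the gene, with the matched letters in capitals, the first from chr9:5308599-5308827 and the second from chr11:59541319-59541567.
Casp4: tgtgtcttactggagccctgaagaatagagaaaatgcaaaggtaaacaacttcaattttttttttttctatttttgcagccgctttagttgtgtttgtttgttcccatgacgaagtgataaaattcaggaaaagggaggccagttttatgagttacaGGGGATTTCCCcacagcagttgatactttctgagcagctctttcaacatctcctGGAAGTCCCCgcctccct
Nlrp3: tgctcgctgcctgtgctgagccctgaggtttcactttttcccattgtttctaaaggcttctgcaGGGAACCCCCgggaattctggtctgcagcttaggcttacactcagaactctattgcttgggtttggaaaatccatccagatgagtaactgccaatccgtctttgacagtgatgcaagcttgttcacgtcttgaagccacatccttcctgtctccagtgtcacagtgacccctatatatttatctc
The Casp4 window held 3 matches, beginning 93, 92 and 39 bases before the start at 5308849, the first 2 of which overlap by all but 1 base. The Nlrp3 window shown held 1 match, beginning 186 bases before the start at 59541569, while the window before another Nlrp3 start, at 59542686, held no match. The windows of Cflar and Ripk1, which also rose, held no match, and neither did those of Pycard, Casp1, Casp8, Ripk3 and Mlkl, while Gsdmd was not among the windows. The letters TTCNNNGAA, a core that STAT proteins can bind, occurred in 7.02% of windows and among the members only before a second start of Ripk1, at 108 and 11 bases from it. These matches are descriptions of the letters and were not tested as binding sites.

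Per kilobase of annotated exon, the order of the members in unstimulated control neutrophils was Nlrp3, Gsdmd, Casp1, Casp4, Ripk1, Casp8, Pycard, Cflar, Ripk3 and Mlkl, and no neighbours in that order overlapped between libraries. The sensor Nlrp3 was at 132 ± 14.1 CPM per kb (SD, n = 3), at the 95.9th percentile of 8343 genes with a known length. The pore-forming substrate Gsdmd followed with 94.4 ± 0.559 CPM per kb and the protease Casp1 with 45.6 ± 5.09 CPM per kb. The inflammasome's sensor, its protease and its pore protein were thus all in the upper part of the neutrophil transcriptome, whereas the adaptor Pycard was at 2.94 ± 0.189 CPM per kb, near the 46.9th percentile. Among the death receptor genes, Ripk1 had 8.17 ± 0.709, Casp8 4.07 ± 1.503 and Cflar 2.35 ± 0.342 CPM per kb. Exon lengths are unions over all annotated transcripts, which is 12669 bases for Cflar, so a gene with long rarely used exons is placed too low by this scale. In unstimulated LTβRΔN neutrophils the order was the same, but Casp8, Pycard, Cflar and Ripk3 overlapped with their neighbours. With stimulation Cflar passed Casp8 and Pycard in the mean, at 4.68 ± 0.827 CPM per kb in control and 5.46 ± 1.15 CPM per kb in LTβRΔN neutrophils. Casp8 was then at 4.63 ± 1.16 and 2.62 ± 1.80 CPM per kb, and its libraries overlapped with those of Cflar in both genotypes. Casp1 and Casp4 came to overlap, and Casp8 and Pycard overlapped too.

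To see which members differed between the treatment labels, stimulated and unstimulated libraries were compared within each genotype. In control neutrophils Nlrp3, Casp4 and Cflar rose, which is 3 of 9 tested members, while 3.48% of all 9213 genes passed the test, and 2.82% did so as higher. In LTβRΔN neutrophils the same 3 genes and Ripk1 rose, 4 of 9 members, where 3.73% of all genes passed and 2.98% did so as higher. By edgeR with TMM scaling no member fell past the threshold in either genotype, while DESeq2 called Ripk3 lower in LTβRΔN and scaling by library totals called Gsdmd lower in control neutrophils (values below). The median log2 fold change of the 9 members was 0.18 in control and 0.11 in LTβRΔN neutrophils, beside -0.024 and -0.028 over all genes tested. The libraries of both labels did not overlap for 4 members in control neutrophils (Nlrp3, Casp4 and Cflar higher, Gsdmd lower). This held for 12.7% of all genes in either direction. In LTβRΔN neutrophils they did not overlap for 4 members (Nlrp3, Casp4 and Cflar higher, Ripk3 lower), and for 7.28% of all genes. For Ripk3 this rests on 0 reads. In libraries 75 and 77 the limit for 0 reads was above its lowest unstimulated value, so its separation is not established. With the library index as a covariate 1 member, Nlrp3, passed in control neutrophils and 0 passed in LTβRΔN neutrophils, and of the 9213 genes 157 and 79 passed in that fit, beside 321 and 344 without the covariate.

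Nlrp3, the sensor, had the largest fitted rise of the 9 tested members in control neutrophils, and in LTβRΔN neutrophils it rose about as much as Cflar. It stood at 486, 522 and 599 CPM in the unstimulated control libraries and at 1364, 1747, 1342 and 1085 CPM in the stimulated ones. Its lowest stimulated library was thus well above its highest unstimulated library. The log2 fold change was 1.37 (SE 0.166, edgeR adjusted p = 3.57e-06), or 2.59-fold (95% interval 2.04 to 3.28). In LTβRΔN neutrophils Nlrp3 had 537, 630, 600 and 596 CPM without and 1060, 1755, 1642, 1414 and 1256 CPM with stimulation, again with no overlap. There the log2 fold change was 1.27 (SE 0.146, edgeR adjusted p = 1.44e-06), or 2.42-fold (95% interval 1.96 to 2.98). Within index S521, the unstimulated control library 73 had 599 CPM beside a mean of 1385 ± 273 CPM (SD, n = 4) in the stimulated libraries. With the index as a covariate the log2 fold change was 1.21 (edgeR adjusted p = 0.00839) in control and 1.02 (edgeR adjusted p = 0.186) in LTβRΔN neutrophils.

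Pycard, the adaptor that joins NLRP3 to caspase-1, did not pass the test in either genotype. It had 10.7, 12.01 and 10.8 CPM in unstimulated and 6.22, 3.32, 8.03 and 13.9 CPM in stimulated control libraries, so that library 83 was above and the other three were below the unstimulated range. In LTβRΔN neutrophils it had 9.90, 12.01, 9.05 and 6.90 CPM without and 9.97, 11.02, 6.34, 4.04 and 3.10 CPM with stimulation, and the groups overlapped. The log2 differences were -0.50 (SE 0.559, edgeR adjusted p = 0.893) and -0.43 (SE 0.513, edgeR adjusted p = 0.846). Over both genotypes it had 8 to 141 reads per library. The 95% interval in control neutrophils ran from 0.317-fold to 1.58-fold, so changes of either direction within it are compatible with these libraries.

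Of the neighbouring inflammatory caspases, Casp4 rose and Casp1 did not pass the test. Casp1 had 66.6, 61.5 and 76.5 CPM in unstimulated and 53.1, 54.3, 86.6 and 70.9 CPM in stimulated control libraries, with log2 difference -0.039 (edgeR adjusted p = 0.989). In LTβRΔN neutrophils it lay between 47.2 and 85.7 CPM without and between 49.6 and 98.8 CPM with stimulation, with log2 difference 0.11 (edgeR adjusted p = 0.935). The 95% intervals ran from 0.684-fold to 1.39-fold and from 0.786-fold to 1.49-fold.

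Casp4, which encodes caspase-11, had 69.7, 61.3 and 122 CPM in unstimulated and 205, 145, 152 and 151 CPM in stimulated control libraries. Every stimulated library was higher, though unstimulated library 73 stood closer to them than the others did. The log2 fold change was 0.96 (SE 0.212, edgeR adjusted p = 0.00734), or 1.94-fold (95% interval 1.43 to 2.63). In LTβRΔN neutrophils Casp4 had 88.9, 85.6, 80.4 and 94.6 CPM without and 114, 177, 150, 135 and 132 CPM with stimulation, which did not overlap. There the log2 fold change was 0.70 (SE 0.188, edgeR adjusted p = 0.0353). Library 73 is also the one unstimulated library of index S521, and within that index Casp4 stood at 122 CPM in it and at 163 ± 28.0 CPM (SD, n = 4) in the stimulated libraries. With the index as a covariate, whose effect rests on library 73, the log2 value was 0.42 (edgeR adjusted p = 0.902) in control and -0.19 (edgeR adjusted p = 0.9999) in LTβRΔN neutrophils, while without library 73 the control value was 1.31 (edgeR adjusted p = 0.000221). The control call was lost without library 71 (edgeR adjusted p = 0.0774), without library 72 (edgeR adjusted p = 0.112) and in a fit of the control libraries alone (edgeR adjusted p = 0.0786).

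Gsdmd, the pore-forming substrate of both caspases, did not pass the test in either genotype. It was at 223, 224 and 226 CPM in the unstimulated control libraries and at 158, 220, 180 and 190 CPM in the stimulated ones, each below the unstimulated range. The log2 difference was -0.26 (SE 0.146, edgeR adjusted p = 0.555). In LTβRΔN neutrophils its values of 210 to 249 CPM without and 163 to 223 CPM with stimulation overlapped, with log2 difference -0.24 (SE 0.130, edgeR adjusted p = 0.495). When libraries were scaled by their totals only, which moved the median log2 fold change of all genes to -0.27 in control and -0.21 in LTβRΔN neutrophils, the control value of Gsdmd was -0.51 (edgeR adjusted p = 0.0463).

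**Figure D1:**
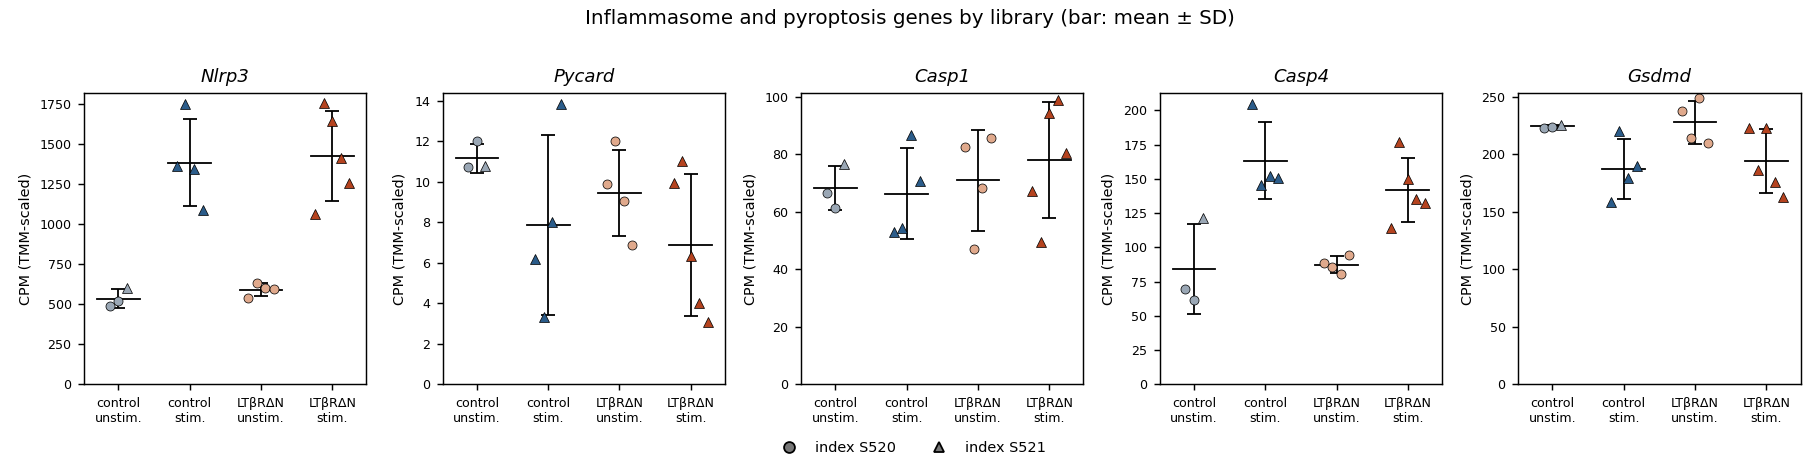
CPM of Nlrp3, Pycard, Casp1, Casp4 and Gsdmd (y axis, each from 0) in each library of the 4 groups, with circles for index S520, triangles for S521, and lines for the mean ± SD. Stimulated libraries sit above unstimulated ones for Nlrp3 and Casp4 in both genotypes, and Casp4 in the unstimulated control library of index S521 is at 122 CPM.

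Cflar, whose product c-FLIP restrains caspase-8, rose about as much as Casp4 in control and more in the mean in LTβRΔN neutrophils. It had 33.3, 24.9 and 31.0 CPM in unstimulated and 50.9, 59.5, 73.9 and 52.6 CPM in stimulated control libraries. The lowest stimulated library was above the highest unstimulated one. The log2 fold change was 0.99 (SE 0.229, edgeR adjusted p = 0.0106), or 1.99-fold (95% interval 1.43 to 2.77). In LTβRΔN neutrophils the values were 29.2, 25.6, 28.5 and 31.2 CPM without and 50.5, 63.0, 72.6, 90.3 and 69.7 CPM with stimulation. These groups did not overlap either, and the log2 fold change was 1.26 (SE 0.208, edgeR adjusted p = 0.000249), or 2.40-fold (95% interval 1.78 to 3.24). The index covariate left the size of the rise at 0.93 (edgeR adjusted p = 0.414) in control and 1.17 (edgeR adjusted p = 0.571) in LTβRΔN neutrophils on the log2 scale, without a call. In control neutrophils Cflar missed the threshold without library 72 (edgeR adjusted p = 0.118).

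Casp8, the protease that c-FLIP binds, did not pass the test. It had 16.8, 9.29 and 9.26 CPM in unstimulated and 8.51, 16.1, 14.9 and 14.1 CPM in stimulated control libraries, which overlapped (log2 difference 0.18, edgeR adjusted p = 0.973). In LTβRΔN neutrophils it had 13.5, 8.80, 9.51 and 7.83 CPM without and 14.95, 6.68, 5.64, 0.898 and 9.68 CPM with stimulation (log2 difference -0.40, edgeR adjusted p = 0.864). The lowest of these, library 78, rested on 2 reads, and the 95% interval in this genotype ran from 0.356-fold to 1.60-fold.

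Ripk1, the kinase shared by the survival and death complexes of TNF receptor 1, passed the test in LTβRΔN but not in control neutrophils, and the difference between the genotypes did not pass (log2 interaction 0.39, SE 0.303, edgeR adjusted p = 0.9999). It had 64.8, 75.0 and 64.7 CPM in unstimulated and 111, 88.0, 85.1 and 64.2 CPM in stimulated control libraries, the last of them below every unstimulated one. The log2 difference was 0.35 (SE 0.226, edgeR adjusted p = 0.659). In LTβRΔN neutrophils Ripk1 had 41.8, 45.6, 49.8 and 58.5 CPM without and 77.2, 105, 83.8, 93.4 and 51.5 CPM with stimulation. Of the stimulated libraries, 4 were above all unstimulated ones and library 79 was within their range. The log2 fold change was 0.75 (SE 0.206, edgeR adjusted p = 0.0420), or 1.68-fold (95% interval 1.25 to 2.26). This call and that of Casp4 in LTβRΔN neutrophils were near the threshold, and each was lost when any of 7 of the 9 libraries was left out.

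Ripk3, the kinase that activates MLKL, was read at a low level and almost only in unstimulated libraries. Its counts were 9, 20 and 10 reads in unstimulated and 0, 13, 0 and 0 reads in stimulated control libraries, the 13 reads all in library 81. In LTβRΔN neutrophils they were 53, 3, 8 and 30 reads without stimulation and 0 in each of the 5 stimulated libraries. All 7 unstimulated libraries thus had reads, and 8 of the 9 stimulated ones had 0. Pooled over libraries, unstimulated LTβRΔN neutrophils had 3.94 CPM (exact Poisson 95% interval 3.18 to 4.82), and the stimulated ones had 0 reads, which allows up to 0.189 CPM at 3 reads over the group. The pooled unstimulated level was 20.9-fold that limit of 3 reads. It was 12.5-fold that limit without library 67, which held 53 of the 94 reads. The exact Poisson 95% interval for the 0 reads reached up to 0.232 CPM. The test across all genes did not pass, with edgeR adjusted p = 0.0779, while DESeq2 gave adjusted p = 0.0380. In control neutrophils the pooled levels were 1.34 CPM (95% interval 0.953 to 1.83) and 0.437 CPM (0.233 to 0.748), with edgeR adjusted p = 0.944. The edgeR 95% interval there ran from 0.0456-fold to 5.63-fold. Library 81 stood at 3.08 CPM, above the 0.685 to 2.27 CPM of the unstimulated control libraries. Only without that library, picked for its reads, was the pooled unstimulated level 11.4-fold over the limit of 3 reads (edgeR adjusted p = 0.103). The Poisson intervals and the limits of 3 reads cover counting error only, and the fold values leave out the error of the unstimulated level. A single library's limit for 0 reads ran from 0.371 to 2.11 CPM in the stimulated LTβRΔN libraries, and in libraries 75 (1.87 CPM) and 77 (2.11 CPM) it was above the 1.81 CPM of the lowest unstimulated LTβRΔN library. Library 73, unstimulated and of index S521, had 10 reads of Ripk3, or 1.404 CPM.

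Mlkl, the executioner of necroptosis, had 1 read in unstimulated LTβRΔN library 69, 1 in stimulated control library 82, and 0 in the other 14 libraries. In unstimulated control neutrophils, where it had 0 reads, the limit over the group was 0.103 CPM, below the levels of the other 9 members. Its level was too low for any comparison between groups.

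**Figure D2:**
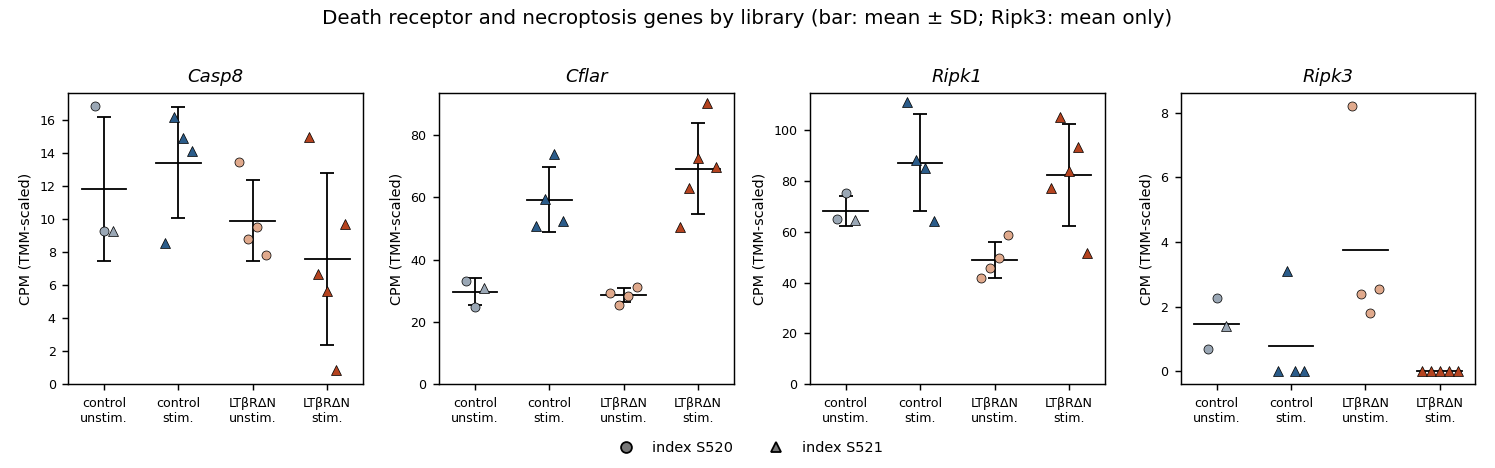
CPM of Casp8, Cflar, Ripk1 and Ripk3 (y axis) in each library of the 4 groups, with circles for index S520, triangles for S521, and lines for the mean ± SD (for Ripk3 the mean alone). Stimulated libraries sit above unstimulated ones for Cflar in both genotypes, and Ripk3 is at 0 in 8 of the 9 stimulated libraries.

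The levels were measured in bulk RNA, in which fewer cells of a type and less RNA per cell cannot be told apart. Summed monocyte markers, nearly all from Csf1r and Ctss, were 370 to 468 CPM in unstimulated and 313 to 450 CPM in stimulated control neutrophils. In LTβRΔN neutrophils they were 338 to 516 and 314 to 352 CPM. The highest value was in an unstimulated library in both genotypes. Summed immature neutrophil markers were 105 to 229 CPM in unstimulated and 76.6 to 753 CPM in stimulated control neutrophils, and 37.6 to 199 and 71.9 to 125 CPM in LTβRΔN neutrophils. Without library 82, which had the highest of these values, Nlrp3, Casp4 and Cflar all still passed in control neutrophils.

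**Figure D3:**
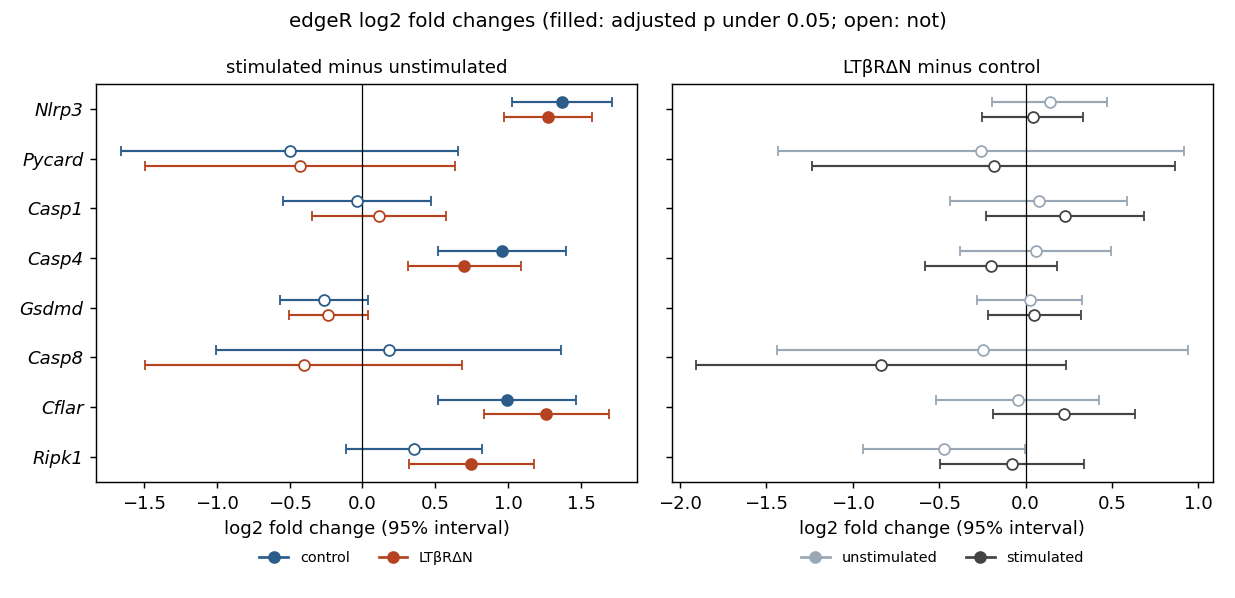
edgeR log2 fold changes with 95% intervals (x axis) of 8 members (Ripk3 and Mlkl left out for their 0 counts), on the left for stimulated minus unstimulated in each genotype and on the right for LTβRΔN minus control under each treatment label, with filled points for an adjusted p under the threshold. Nlrp3, Casp4 and Cflar are filled in both genotypes, Ripk1 in LTβRΔN, and 0 points are filled on the right.

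The genotypes were compared to ask whether loss of the lymphotoxin β receptor went with other levels of these genes. By edgeR 0 of 9 members passed in stimulated and 0 of 9 in unstimulated neutrophils, where 0.0217% of all genes passed in each case, and DESeq2 also gave 0 and 0. At an unadjusted p under 0.05 there was 1 member in each, beside 6.41% of all genes in stimulated and 2.8% in unstimulated neutrophils. In unstimulated neutrophils this was Ripk1, at 41.8 to 58.5 CPM in LTβRΔN and 64.7 to 75.0 CPM in control libraries, with log2 difference -0.47 (SE 0.227, edgeR unadjusted p = 0.0491, adjusted p = 1). In stimulated neutrophils it was Ripk3 (edgeR unadjusted p = 0.0327, adjusted p = 0.719), for which 13 reads of 1 control library stood against 0 reads. For Nlrp3 the 95% interval of LTβRΔN against control ran from 0.842-fold to 1.26-fold with stimulation and from 0.875-fold to 1.39-fold without it. For Cflar the intervals ran from 0.878-fold to 1.55-fold and from 0.698-fold to 1.34-fold, and for Casp4 from 0.670-fold to 1.13-fold and from 0.770-fold to 1.41-fold. Leaving Ripk3 aside, Casp8 had the widest interval with stimulation, from 0.267-fold to 1.18-fold.

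Whether stimulation acted differently in the genotypes was tested as an interaction. By edgeR 0 of 9 members passed, as did 0 of 9213 genes (0%), and DESeq2 gave 0 members as well. At an unadjusted p under 0.05 there was 1 member, Ripk3 (edgeR unadjusted p = 0.0315, adjusted p = 0.9999), beside 3.71% of all genes. The log2 difference of the rise in LTβRΔN minus that in control was -0.098 (SE 0.214) for Nlrp3, -0.26 (SE 0.279) for Casp4 and 0.27 (SE 0.302) for Cflar. The 95% intervals of these ran from 0.688-fold to 1.27-fold, from 0.561-fold to 1.25-fold and from 0.781-fold to 1.86-fold.

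Ratios of members within a library, which do not depend on the scaling of libraries, were compared for pairs that act against or upon each other. The ratio of Nlrp3 to its adaptor Pycard went from a mean log2 value of 5.48 ± 0.185 (SD, n = 3) to 7.51 ± 1.12 (SD, n = 4) in control neutrophils, a difference of 2.03 (exact permutation p = 0.0571). In LTβRΔN neutrophils it went from 5.87 ± 0.342 (SD, n = 4) to 7.68 ± 0.778 (SD, n = 5), a difference of 1.81 (exact permutation p = 0.0159). The ratio of Casp4 to Casp1 went from -1.07 ± 0.371 to 0.0060 ± 0.488 in control (exact permutation p = 0.0571) and from -0.98 ± 0.350 to -0.42 ± 0.543 in LTβRΔN neutrophils (exact permutation p = 0.0952). The ratio of Cflar to Casp8 went from -0.75 ± 0.377 to 0.032 ± 0.339 in control (exact permutation p = 0.0286, the smallest that 4 against 3 libraries allow) and from -0.59 ± 0.357 to 1.41 ± 1.71 in LTβRΔN neutrophils (exact permutation p = 0.0317). Each of these 6 differences was positive. By the Benjamini-Hochberg adjustment over 20 two-sided tests 0 passed, the adjusted permutation p of the 6 lying between 0.106 and 0.212. The smallest permutation p was 0.0286 for 4 against 3 libraries and 0.00794 for 5 against 4. With this adjustment no ratio could pass by itself, even with libraries fully apart, so the lack of calls decides nothing about a single ratio. In LTβRΔN neutrophils the wide spread of Cflar to Casp8 came from library 78, at 4.20 on the log2 scale, where Casp8 had 2 reads. Between genotypes the adjusted permutation p of the 3 ratios lay between 0.231 and 0.857. The ratios of Ripk3 to Ripk1 and of Mlkl to Ripk3 rest on libraries at 0 and were not read.

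**Figure D4:**
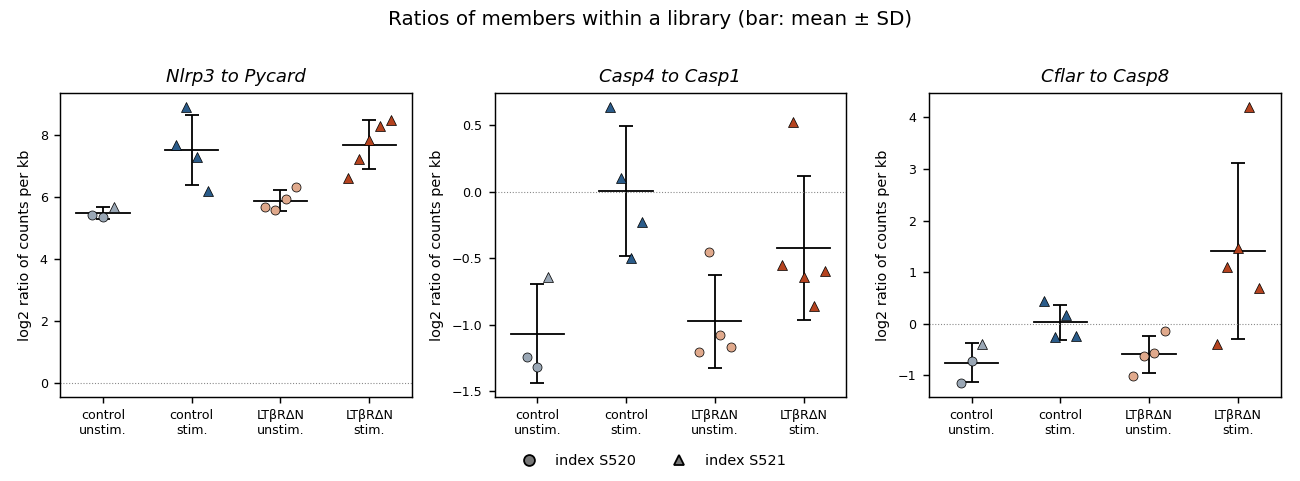
Log2 ratio of counts per kilobase (y axis) of Nlrp3 to Pycard, Casp4 to Casp1 and Cflar to Casp8 in each library of the 4 groups, with circles for index S520, triangles for S521 and lines for the mean ± SD. Group means are higher with stimulation in all 3 panels and both genotypes, and the highest Cflar to Casp8 ratio, 4.20, is that of library 78.

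The other genes of these pathways were described from lists of 56 genes, of which 50 passed the filter on low counts. In control neutrophils 6 of the 50 rose and 2 fell, and in LTβRΔN neutrophils 4 rose and 1 fell, where 3.48% and 3.73% of all genes passed in either direction. Their median log2 fold changes were 0.059 and 0.0057, beside -0.024 and -0.028 over all genes tested. Between genotypes and in the interaction 0 of the 50 passed by edgeR. The list of members and these lists share no gene. The calls of these 50 genes were not checked with the index as a covariate, and in LTβRΔN neutrophils index and stimulation cannot be told apart.

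Among the ligands, receptors and regulators of TNF receptor 1, Tnfaip3 and Tnf had the largest changes. Tnfaip3, the ubiquitin-editing enzyme A20 that curbs NF-κB and cell death, rose from 56.0 ± 20.6 to 3513 ± 230 CPM in control neutrophils (log2 fold change 5.98, edgeR adjusted p = 1.97e-15) and from 80.6 ± 5.67 to 3298 ± 272 CPM in LTβRΔN neutrophils (5.35, edgeR adjusted p = 6.04e-16). Birc3, the ubiquitin ligase cIAP2 that keeps RIPK1 in its survival complex, rose by 0.81 (edgeR adjusted p = 0.0136) and 0.64 (edgeR adjusted p = 0.0336) on the log2 scale. The ligand Tnf rose from 9.05 ± 6.09 to 161 ± 51.5 CPM and from 12.1 ± 5.19 to 139 ± 21.6 CPM, by 4.19 (edgeR adjusted p = 4.60e-07) and 3.50 (edgeR adjusted p = 8.03e-07). Its receptor gene Tnfrsf1a fell from 1435 ± 53.3 to 1061 ± 150 CPM in control neutrophils (log2 fold change -0.44, edgeR adjusted p = 0.0360), and in LTβRΔN neutrophils had 1441 ± 142 and 1161 ± 52.5 CPM (-0.31, edgeR adjusted p = 0.118). Of the 17 genes of the receptor complex and its ubiquitin regulators, Tnfaip3 and Birc3 were the 2 that passed in either genotype. The 7 apoptotic caspase and mitochondrial genes and the 4 tested necroptosis inputs gave 0 calls in both genotypes.

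On the inflammasome side, Il1b, whose product caspase-1 matures, rose from 7986 ± 2570 to 20867 ± 3036 CPM in control neutrophils (log2 fold change 1.39, edgeR adjusted p = 6.41e-05) and from 9772 ± 2799 to 20452 ± 2050 CPM in LTβRΔN neutrophils (1.07, edgeR adjusted p = 0.000291). Txnip, a thioredoxin-binding protein that can bind NLRP3, fell by 1.19 (edgeR adjusted p = 0.000322) and by 1.10 (edgeR adjusted p = 0.000165) on the log2 scale. Mefv, which encodes the sensor pyrin, rose by 0.93 in control (edgeR adjusted p = 0.00528) and had a log2 difference of 0.29 in LTβRΔN neutrophils (edgeR adjusted p = 0.556), and its interaction did not pass (log2 -0.65, edgeR adjusted p = 0.9999). Ninj1, which ruptures the plasma membrane late in lytic death, rose by 0.72 in control (edgeR adjusted p = 0.0104) and had 0.42 in LTβRΔN neutrophils (edgeR adjusted p = 0.152). Unstimulated control library 73, of index S521, lay nearer the stimulated libraries than 71 and 72 did for Il1b (10948 beside 6677 and 6334 CPM). The same held for Txnip (1796 beside 2797 and 3354 CPM) and Mefv (180 beside 145 and 104 CPM). For Ninj1 it lay farther from them (427 beside 717 and 537 CPM). Of the 8 tested sensors besides Nlrp3, Mefv was the only one that passed, and it did so in control neutrophils. Il18, the other cytokine matured by caspase-1, had log2 differences of 0.055 (edgeR adjusted p = 0.995) and 0.66 (edgeR adjusted p = 0.864). Nlrc4, Naip1, Naip6, P2rx7, Fasl and Tlr3 were not tested, and Fasl and Tlr3 had 0 reads in all 16 libraries.

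**Figure D5:**
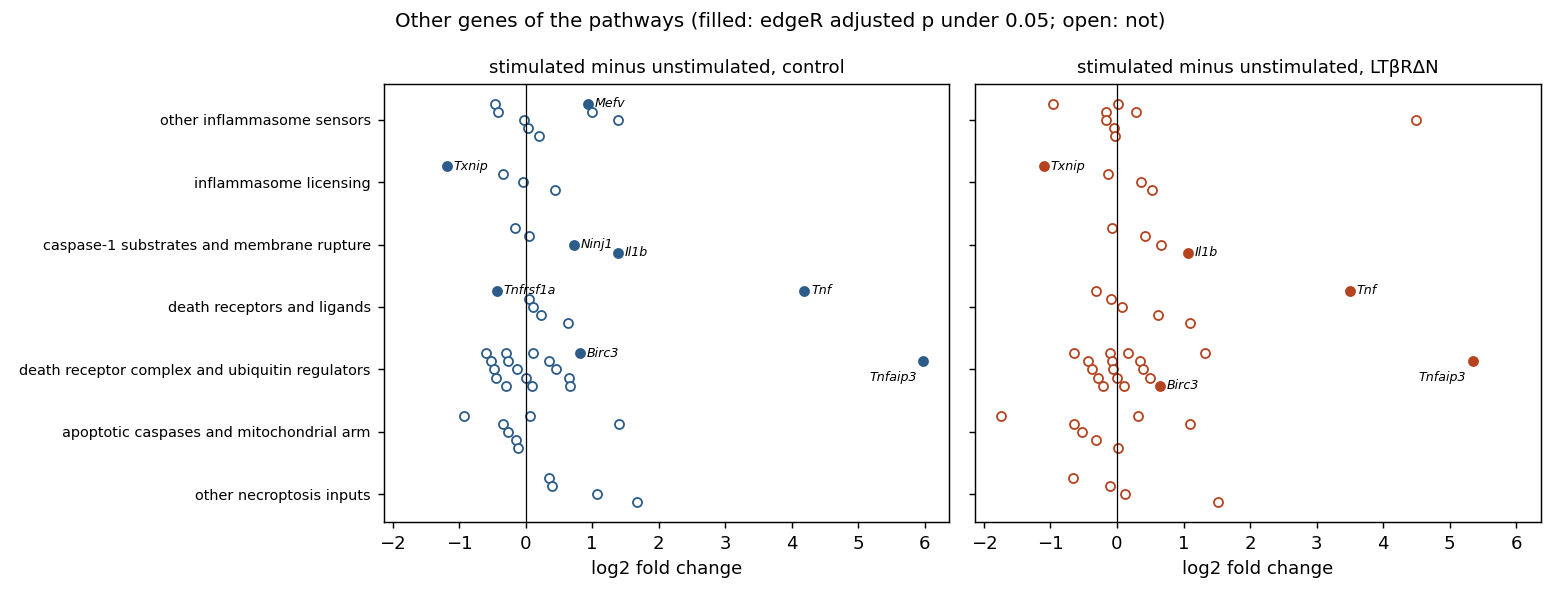
edgeR log2 fold changes (x axis) for stimulated minus unstimulated of the 50 tested pathway genes in 7 lists (rows), in control on the left and LTβRΔN on the right, with filled and named points for an adjusted p under the threshold. Tnfaip3 and Tnf lie farthest to the right among the filled points, the filled points on the left are Txnip in both genotypes and Tnfrsf1a in control, and most points are open.

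The genes whose log2 CPM followed each rising member most closely over the 16 libraries were named as a description. For Nlrp3 they were Bcl2a1d (Pearson r = 0.979), Cd274 (0.978) and Marcksl1 (0.978). For Cflar they were Tet2 (0.971), 5430427O19Rik (0.952) and Tifa (0.945). For Casp4 they were Slc20a1 (0.934), Irg1 (0.903) and Tmed5 (0.902), and for Ripk1, less closely, Gm6307 (0.875), Med11 (0.837) and 4933407C03Rik (0.837). The 16 points fall into stimulated and unstimulated libraries, and both genes of a pair share each library and its depth.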

How the data were processed

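Blood neutrophils of 16 libraries were measured by single-end bulk RNA-Seq. The authors deposited 1 table of whole-number read counts per gene symbol, without normalization; the submitters' processing notes name Bowtie 1.0.0, TopHat 1.4.1, HTSeq 0.7.1 and mm10, and the annotation and strand setting are not given in the sources used here. Groups and libraries were taken from the labels, and the deposited columns were matched to them by name. Genes were filtered by filterByExpr (minimum count 10, minimum total 15) and fitted with edgeR 4.0.16 in R 4.3.3 (TMM, quasi-likelihood test, 1 fit over 16 libraries). Adjusted p-values are Benjamini-Hochberg over 9213 genes, with a threshold of 0.05. The fit was run on simulated counts with changes placed in stimulated control libraries alone, and with no index or pairing effect. That run checked the code and not the calls made here. Ratios used counts plus 0.5 and exact two-sided permutation tests. Alternatives were other scalings and filters, DESeq2 1.42.0, the library index, a block for a number that column names share, the compared groups only, and each library left out. Library pairs within a group differed by more than sampling noise (chi-square per degree of freedom 6.82 to 49.4 over 25 pairs), so none was counted as a repeat. Gene places and exon lengths are GENCODE M21 on GRCm38, promoter windows RefSeq GRCm38.p6.

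The genes named are the 10 members, genes of the pathway lists that passed in any comparison, Ltbr and Nfkbia as checks, and the 3 most similar genes of each member that passed between treatment labels. Il18, the 6 pathway genes not tested, Serpinb6a and the marker genes were named besides these. Members and lists were chosen with earlier results of these data known. The listed Gsdme, Otulin, Hbb-bs and Siglecf were matched through older symbols. Some listed genes are not reported here by name.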

Additional observations from a re-analysis of the deposited data

Results flagged for a closer look

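Member levels and ratios within groups of 4 or 5 libraries formed 37 sets. In 7 of them the highest or lowest value stood apart from the rest by more than Dixon's 95% limit. A set with reads in 1 library alone passes that limit by construction, as for Mlkl and for Ripk3 in stimulated control libraries. The ratios also use the same counts as the levels, so the number of flags was not weighed against chance. Casp4 stood at 205 CPM in stimulated control library 80, above the other 3, and Casp4 passed without that library too (log2 fold change 0.83, edgeR adjusted p = 0.0293). Ripk3 stood at 3.08 CPM in stimulated control library 81 beside 3 libraries at 0, and at 8.20 CPM in unstimulated LTβRΔN library 67. Mlkl stood at 0.0991 CPM in stimulated control library 82 and at 0.226 CPM in unstimulated LTβRΔN library 69, in each case 1 read against 0. The log2 ratio of Casp4 to Casp1 stood highest at -0.46 in unstimulated LTβRΔN library 68, which is the library with the fewest reads (1094335), and at 0.52 in stimulated LTβRΔN library 76. Each of the 7 values came from a different library. No interaction passed for any of the 9 members by edgeR.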

How the results depend on the processing

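Of 1021 recomputed values of 63 results, 938 were classed as unchanged. For fold changes and ratios this meant the same direction and side of the threshold, and for Ripk3 the same side alone. A count of passing members could differ slightly from that of the main fit and still be classed as unchanged. Most of the results had not passed in the main fit, and unchanged then meant that they still did not pass. Nlrp3 passed in control neutrophils under every alternative run, with log2 values of 1.13 to 1.47, and in LTβRΔN neutrophils under each but the index covariate, with values of 1.02 to 1.36. With the index as a covariate 1 member passed in control and 0 in LTβRΔN neutrophils; in the latter the log2 value of Casp4 turned to -0.19, of Casp1 to -0.14 and of Casp8 to 0.091, and this fit takes the index effect from library 73 alone. With scaling by library totals only 2 members passed in LTβRΔN neutrophils, where Casp1 turned to -0.061, and Casp8 turned to -0.067 in control neutrophils; unstimulated Gsdmd turned to -0.030 between genotypes. Leaving out 1 library at a time gave 1 to 3 members in control (1 without library 72) and 2 to 4 in LTβRΔN neutrophils (2 without any of 67, 68, 69, 76, 77 and 78). Casp4 in control neutrophils was lost without library 71 (edgeR adjusted p = 0.0774), without library 72 (0.112) and in the fit of the compared groups only (0.0786). Cflar in control neutrophils was lost with library totals (0.0557). In LTβRΔN neutrophils Casp4 (0.116) and Ripk1 (0.128) were lost with library totals, and Ripk1 also with upper-quartile scaling (0.0512) and with every gene of at least 1 count (0.0535).

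The log2 values that turned in direction with a library left out were all of results that had not passed. For stimulation these were Casp1, from -0.20 to 0.056 in control and from -0.027 to 0.25 in LTβRΔN neutrophils. Between genotypes with stimulation they were Nlrp3 (-0.058 to 0.17), Pycard (-0.45 to 0.24), Gsdmd (-0.021 to 0.14), Ripk1 (-0.20 to 0.061) and the ratio of Nlrp3 to Pycard (-0.27 to 0.64). Without stimulation they were Casp1 (-0.026 to 0.22), Casp4 (-0.13 to 0.42), Gsdmd (-0.021 to 0.063), Casp8 (-0.44 to 0.096), Cflar (-0.16 to 0.042), and the ratios of Cflar to Casp8 (-0.034 to 0.34) and of Casp4 to Casp1 (-0.082 to 0.30). In the interaction they were Nlrp3 (-0.20 to 0.033), Pycard (-0.20 to 0.49) and Gsdmd (-0.045 to 0.11). The cause of these turns was not tested.

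The number in the column names is shared by 7 pairs of unstimulated and stimulated libraries. Their deviations from the group means correlated by 0.0214 to 0.0694, none over 0.1, and the main fit did not take the numbers as pairs. However, 6 of the 7 unstimulated libraries correlated best with their own number within the genotype. A pairing is therefore possible, and the main p-values do not use it. With a replicate block for that number 2 members passed in control neutrophils (Cflar at 0.87, edgeR adjusted p = 0.0755, did not) and 3 in LTβRΔN neutrophils (Casp4 at 0.70, edgeR adjusted p = 0.0626, did not). Low counts limit Pycard, Casp8, Ripk3 and Mlkl, for which only large changes could have been detected.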
